A study of Homo sapiens with 6 samples.

Results

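Histone methylation and deacetylation enzymes were read as 64 protein-coding genes, of 21429 genes in the deposited table, in U251 cells after knockdown of RPL13. The 64 were chosen by name: symbols that begin with KMT2, KMT5, KDM, HDAC, SIRT, SETD or NSD, together with EZH1, EZH2, EED, SUZ12, DOT1L, EHMT1, SUV39H1, SUV39H2 and ASH1L. NSDHL begins with the same letters but encodes a sterol dehydrogenase and was left out. U251 is an established human glioma line, and in both groups it stably carried a mutant amyloid precursor protein gene, APP (K670N/M671L). Cells were electroporated with an siRNA against RPL13 (siRPL13), a component of the ribosome's large subunit, or with a scramble control siRNA (siNC), with 3 libraries in each group. Both groups were given 1 µg/mL doxycycline from 24 h to switch APP on and were harvested at 72 h. The replicates are labelled biological, but how the cultures were kept apart and whether the line is 1 clone is not stated, so p-values measure the spread between these libraries.

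Lysine methyltransferases place methyl groups on histone tails, most of them through a SET domain, and demethylases of the KDM family remove them. Methylated H3K4 marks promoters and enhancers, methylated H3K36 the bodies of transcribed genes, and methylated H3K9 and H3K27 silent chromatin, the H3K27 mark being written by Polycomb repressive complex 2 (PRC2). Zinc-dependent histone deacetylases (HDACs) and the NAD-dependent sirtuins remove acetyl groups from histones and many other proteins.

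Values are regularized-log (rlog) values, a log2 scale on which differences of genes with few reads are shrunk, and read depth per library is unknown. RPL13 itself measured 13.03, 13.12 and 14.09 in siRPL13 replicates 1 to 3 and 14.05, 14.16 and 14.18 in siNC. The target was thus not lowered in the library labelled siRPL13 replicate 3. Every count is therefore given with it (all 6 libraries) and without it (the 5-library comparison, 2 siRPL13 against 3 siNC libraries), and without it RPL13 was at 48.1% of siNC. Of the astrocytic glioma markers, 8 of 9 were in the table, from S100B (5.48 to 5.83 over the libraries) to VIM (15.90 to 16.33). VIM and NES were lower in siRPL13, by limma in the 5-library comparison, with log2 differences of -0.31 ± 0.07 and -0.34 ± 0.05 (adjusted p 0.00910 and 0.00227). GFAP, at 14.73 to 15.50, did not pass (-0.31 ± 0.12, adjusted p 0.0985). For all 3 genes every siRPL13 library lay below every siNC library, as for 6.9% of all genes tested. For GFAP the gap was smaller than the second decimal shows. The other markers did not pass: SOX9 and CD44 differed by 0.06 ± 0.07 and 0.07 ± 0.08. S100B, SLC1A3 and FABP7 differed by -0.04 ± 0.09, -0.06 ± 0.08 and -0.04 ± 0.08. Markers of other cell types were not all absent. RBFOX3, ITGAM and CDH1, which define neurons, myeloid cells and epithelia, lay below 1, but SNAP25 (6.84 to 7.17) and SYN1 (4.32 to 4.62) of the neuronal list, CSF1R (4.88 to 5.22) and CD14 (3.51 to 3.67) of the myeloid list and KRT18 (7.78 to 8.15) of the epithelial list were higher. None of these 5 passed the test (KRT18 -0.24 ± 0.08, adjusted p 0.0506), and their part in the results was not tested. STMN2, a neuronal gene, measured 4.64, 4.61 and 7.71 in siRPL13 replicates 1 to 3 and 4.62, 4.66 and 4.63 in siNC, so the library labelled siRPL13 replicate 3 stood apart in this gene too.

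With all 6 libraries, 0 of the 64 enzyme genes were called (limma, smallest adjusted p 0.589), as were 0% of the 15327 genes tested. At an unadjusted p under 0.05 the count was 1, SIRT5, against 8.32% of all genes tested. In the 5-library comparison 6 of the 64 rose (9.38%) and 10 fell (15.6%), against 8.42% and 10.7% of all genes tested, so the count of rises was near the background and that of falls somewhat above it. In either direction 16 of 64 were called (25%), against 19.1% of all genes tested. Counts by role group, given below, cover 3 to 16 genes each and are to be read against these same shares. From here on, "rose" and "fell" mean that limma gave an adjusted p under 0.05 with the 5 libraries, and differences are log2 differences, siRPL13 minus siNC, with their SE over those libraries unless another is named. Changes were small: the 64 differences ran from -0.35 to 0.31, 31 lay within 0.1 of 0, and the median was -0.01, against -0.00 over all genes tested.

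The number of calls moved with single libraries. Without siRPL13 replicate 1 as well, 0 of the 64 were called, against 1.59% of all genes tested. Without siRPL13 replicate 2 the called genes were 3 (ASH1L, SIRT2 and KMT5A), against 6.15%. Without siNC replicate 3 there were 9 (14.1%), against 14.7% of all genes tested, and without siNC replicate 2 there were 10 (15.6%), against 15.4%, so both counts were at the background, with all of these genes among the 16. Without siNC replicate 1 there were 24 (37.5%), 9 higher and 15 lower, against 24.5%, and 15 of the 16 were among them. Weights estimated for each of the 6 libraries were 0.992, 7.19 and 0.163 in siRPL13 replicates 1 to 3 and 0.596, 0.851 and 1.70 in siNC. The weighted siRPL13 level thus rested mostly on replicate 2. With these weights 13 of the 64 were higher and 15 lower, against 17% and 17.7% of all genes tested.

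**Figure D1:**
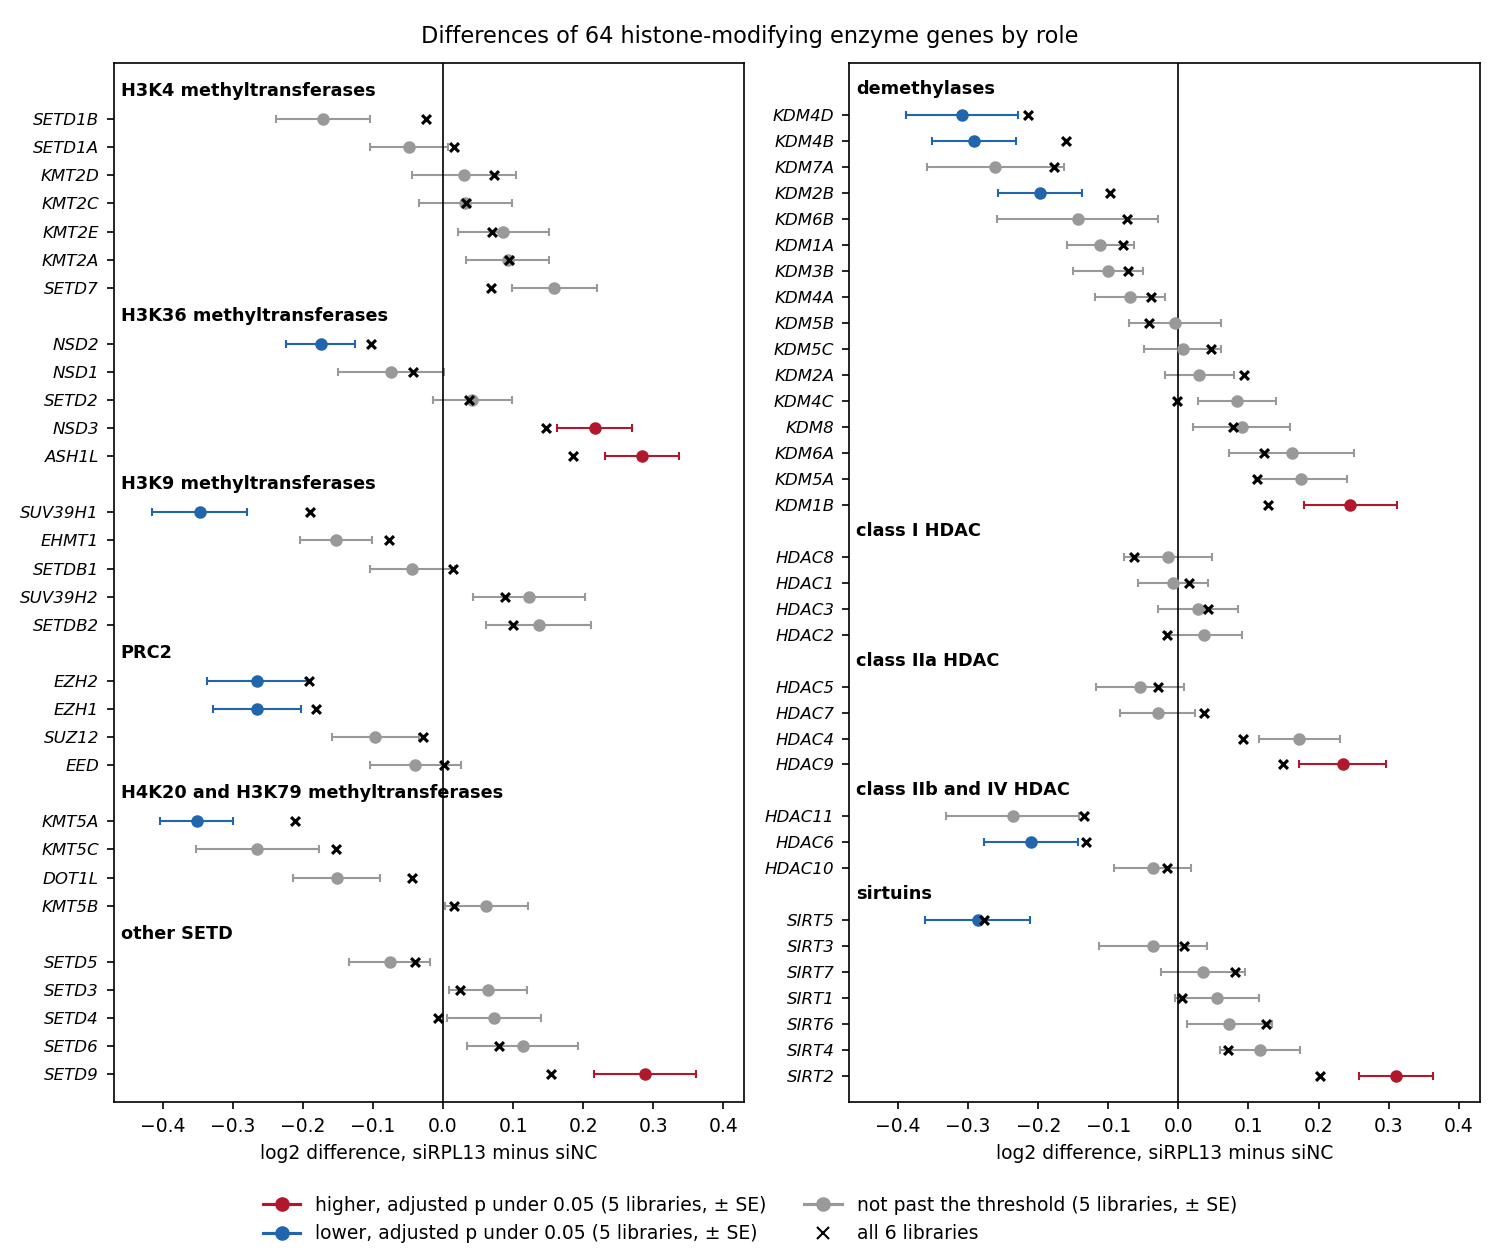
Log2 difference (horizontal axis, siRPL13 minus siNC) of the 64 enzyme genes by role, with circles and bars for the 5-library comparison ± SE (red higher, blue lower, grey not past the threshold) and crosses for all 6 libraries. The 16 coloured genes run from KMT5A at -0.35 to SIRT2 at 0.31, and the cross of each lies nearer to 0, that of SIRT5 only slightly (-0.28 against -0.29).

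Both catalytic subunits of PRC2 fell, while SUZ12 and EED did not pass the test. RBBP7, another subunit, is counted with the partner lists below and fell as well. EZH2 (chromosome 7, 148807383 to 148884321, minus strand, GRCh38), the main H3K27 methyltransferase of dividing cells, measured 10.91, 10.98 and 11.16 in siRPL13 replicates 1 to 3 and 11.36, 11.11 and 11.16 in siNC. Replicates 1 and 2 of siRPL13 were its lowest libraries, with siNC replicate 1 well above the other siNC libraries. EZH2 fell by 0.27 ± 0.07, to 83.2% of siNC (adjusted p 0.0257), and with all 6 libraries the difference was -0.19 ± 0.09. EZH1, its paralog, measured 9.18, 9.09 and 9.39 in siRPL13 replicates 1 to 3 and 9.37, 9.41 and 9.42 in siNC. The siNC libraries lay close together here, and the library labelled siRPL13 replicate 3 lay among them. EZH1 fell by 0.27 ± 0.06 (adjusted p 0.0149), against -0.18 ± 0.08 with all 6 libraries. The scaffold SUZ12 and the reader EED differed by -0.10 ± 0.06 and -0.04 ± 0.07 (adjusted p 0.305 and 0.713).

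KMT5A, which places the first methyl group on H4K20, had the lowest fitted difference of the 64. KMT5A (chromosome 12, 123383773 to 123409358, plus strand) measured 10.75, 10.79 and 11.19 in siRPL13 replicates 1 to 3 and 11.08, 11.15 and 11.14 in siNC. Replicates 1 and 2 of siRPL13 lay below every siNC library and the library labelled siRPL13 replicate 3 above every one. KMT5A fell by 0.35 ± 0.05, to 78.4% of siNC (adjusted p 0.00186), against -0.21 ± 0.11 with all 6 libraries. A processed pseudogene, KMT5AP2, whose reads may not be separable from those of KMT5A, fell by 0.28 ± 0.06 (adjusted p 0.0117). The enzymes for the further methyl groups did not pass: KMT5B differed by 0.06 ± 0.06 and KMT5C by -0.26 ± 0.09 (adjusted p 0.0573). DOT1L, the H3K79 methyltransferase, differed by -0.15 ± 0.06 (adjusted p 0.108).

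Among 5 H3K9 methyltransferases 1 fell, against 10.7% of all genes tested. SUV39H1 (chromosome X, 48695554 to 48709012, plus strand), an enzyme of constitutive heterochromatin, measured 8.68, 8.58 and 9.10 in siRPL13 replicates 1 to 3 and 8.96, 8.96 and 9.01 in siNC. The siNC libraries spanned a narrow range, with siRPL13 replicates 1 and 2 below it and the library labelled siRPL13 replicate 3 above it. SUV39H1 fell by 0.35 ± 0.07, to 78.6% of siNC (adjusted p 0.00639), against -0.19 ± 0.13 with all 6 libraries. Its paralog SUV39H2 differed by 0.12 ± 0.08 (adjusted p 0.313). EHMT1, which makes H3K9me1 and H3K9me2, differed by -0.15 ± 0.05 (adjusted p 0.0586), SETDB1 by -0.04 ± 0.06 and SETDB2 by 0.14 ± 0.08.

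Of 5 H3K36 methyltransferases 2 rose and 1 fell, against 8.42% and 10.7% of all genes tested. ASH1L (chromosome 1, 155335268 to 155562807, minus strand), of the Trithorax group, measured 11.03, 10.96 and 10.70 in siRPL13 replicates 1 to 3 and 10.70, 10.75 and 10.68 in siNC. Only siRPL13 replicates 1 and 2 lay outside the siNC range. ASH1L rose by 0.28 ± 0.05, to 122% of siNC (adjusted p 0.00517), against 0.19 ± 0.09 with all 6 libraries. NSD3 (chromosome 8, 38269697 to 38382272, minus strand), which makes H3K36me2, measured 11.37, 11.36 and 11.16 in siRPL13 replicates 1 to 3 and 11.20, 11.17 and 11.08 in siNC, and rose by 0.22 ± 0.05 (adjusted p 0.0190), against 0.15 ± 0.07 with all 6. NSD2, a paralog with the same product, measured 13.16, 13.24 and 13.41 in siRPL13 replicates 1 to 3 and 13.38, 13.35 and 13.39 in siNC. The same pair of siRPL13 libraries was highest for NSD3 and lowest for NSD2. NSD2 fell by 0.17 ± 0.05 (adjusted p 0.0322), against -0.10 ± 0.07 with all 6, and its call was lost with quantile normalization and without a variance trend. NSD1 and SETD2, the enzyme that makes H3K36me3, differed by -0.07 ± 0.08 and 0.04 ± 0.06.

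None of the 7 genes grouped by name as H3K4 methyltransferases passed the test, against 19.1% of all genes tested. Activity of each on H3K4 was not assessed. KMT2D, which makes H3K4me1 at enhancers, measured 12.19, 12.18 and 12.31 in siRPL13 replicates 1 to 3 and 12.01, 12.31 and 12.15 in siNC, with overlapping groups and a difference of 0.03 ± 0.07 (adjusted p 0.818). Differences in this group ran from -0.17 ± 0.07 (SETD1B, adjusted p 0.0984) to 0.16 ± 0.06 (SETD7, adjusted p 0.0901). KMT2A, KMT2C and KMT2E, of the MLL family, differed by 0.09 ± 0.06, 0.03 ± 0.07 and 0.09 ± 0.06, and SETD1A by -0.05 ± 0.06. Among 5 other SETD genes, which include the actin histidine methyltransferase SETD3, 1 rose. SETD9 measured 8.14, 8.13 and 7.73 in siRPL13 replicates 1 to 3 and 7.91, 7.82 and 7.81 in siNC. The library labelled siRPL13 replicate 3 was the lowest of the 6, and siRPL13 replicates 1 and 2 the highest. SETD9 rose by 0.29 ± 0.07 (adjusted p 0.0207), against 0.15 ± 0.11 with all 6 libraries. SETD3, SETD4, SETD5 and SETD6 differed by 0.06 ± 0.06, 0.07 ± 0.07, -0.08 ± 0.06 and 0.11 ± 0.08.

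**Figure D2:**
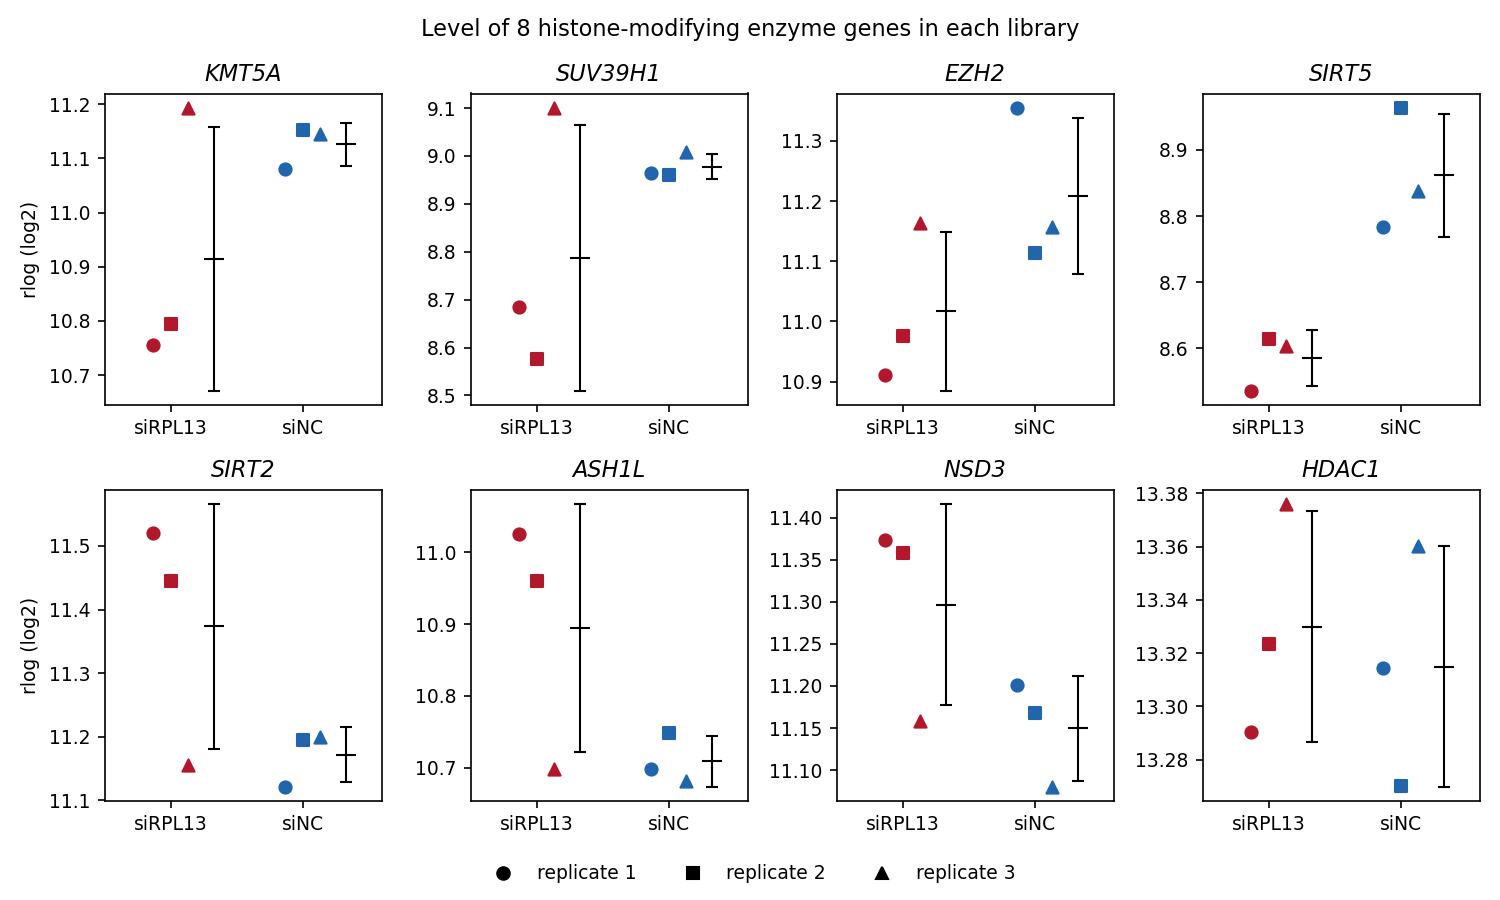
Rlog level (vertical axes, log2, each with its own range and not from 0) of 8 enzyme genes in each library, siRPL13 in red left of siNC in blue, with the point's shape showing the replicate and a black bar the group mean ± SD (n = 3). KMT5A is at 10.75 and 10.79 in siRPL13 replicates 1 and 2 but 11.19 in replicate 3, whereas SIRT5 is between 8.54 and 8.61 in all siRPL13 libraries.

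Of 16 demethylases 3 fell (18.8%) and 1 rose (6.25%), against 10.7% and 8.42% of all genes tested. KDM4B (chromosome 19, 4969113 to 5153595, plus strand), a Jumonji demethylase of H3K9 and H3K36, measured 10.58, 10.63 and 11.00 in siRPL13 replicates 1 to 3 and 10.92, 10.97 and 10.81 in siNC, and fell by 0.29 ± 0.06 (adjusted p 0.00841), against -0.16 ± 0.11 with all 6 libraries. KDM4D, an H3K9 demethylase of the same family, measured 5.81, 5.88 and 6.13 in siRPL13 replicates 1 to 3 and 6.03, 6.18 and 6.25 in siNC. It was among the lowest of the 64 in level, and fell by 0.31 ± 0.08 (adjusted p 0.0227), against -0.22 ± 0.10 with all 6. KDM4A and KDM4C differed by -0.07 ± 0.05 and 0.08 ± 0.06. KDM2B, an H3K36 demethylase that brings a Polycomb complex to CpG islands, measured 9.96, 9.96 and 10.26 in siRPL13 replicates 1 to 3 and 10.11, 10.24 and 10.12 in siNC. It fell by 0.20 ± 0.06 (adjusted p 0.0426), against -0.10 ± 0.09 with all 6, and its call was lost under 5 of 9 other settings.

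KDM1B, a flavin-dependent H3K4 demethylase, measured 10.45, 10.37 and 10.06 in siRPL13 replicates 1 to 3 and 10.19, 10.05 and 10.25 in siNC. The siNC range held the library labelled siRPL13 replicate 3 and lay below the other siRPL13 libraries. KDM1B rose by 0.25 ± 0.07 (adjusted p 0.0276), against 0.13 ± 0.11 with all 6. Its paralog KDM1A measured 11.73, 11.76 and 11.84 in siRPL13 replicates 1 to 3 and 11.84, 11.87 and 11.85 in siNC. Every siRPL13 library lay below every siNC library for KDM1A, though in replicate 3 by less than the second decimal shows, and the difference was -0.11 ± 0.05 (adjusted p 0.125). The H3K27 demethylases KDM6A and KDM6B differed by 0.16 ± 0.09 and -0.14 ± 0.12, and the H3K4 demethylases KDM5A, KDM5B and KDM5C by 0.17 ± 0.07, -0.00 ± 0.07 and 0.01 ± 0.05. Adjusted p of these 5 lay between 0.0862 (KDM5A) and 0.968 (KDM5B). KDM2A, KDM3B, KDM7A and KDM8, the other demethylases, differed by 0.03 ± 0.05, -0.10 ± 0.05, -0.26 ± 0.10 and 0.09 ± 0.07, none past the threshold.

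Class I HDACs, which include the deacetylases of the nuclear corepressor complexes, held no call. HDAC1 measured 13.29, 13.32 and 13.38 in siRPL13 replicates 1 to 3 and 13.31, 13.27 and 13.36 in siNC. The groups overlapped, with a difference of -0.01 ± 0.05 (adjusted p 0.928) and of 0.02 ± 0.06 with all 6 libraries. HDAC2, HDAC3 and HDAC8 differed by 0.04 ± 0.05, 0.03 ± 0.06 and -0.02 ± 0.06. After scaling for transcript length (siNC mean rlog minus log2 of kilobases), HDAC1 had the highest level of the 64, 12.23. HDAC9 followed at 10.85 and NSD2 at 10.40, and HDAC10 was lowest at 2.91. This order depends on the 1 transcript whose length was taken for each gene. Before scaling, the siNC mean of NSD2 (13.37) was above that of HDAC1 (13.31).

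Of 4 class IIa HDACs, which shuttle between nucleus and cytoplasm, 1 rose. HDAC9 (chromosome 7, 18086949 to 19002416, plus strand) measured 12.76, 12.77 and 12.51 in siRPL13 replicates 1 to 3 and 12.66, 12.49 and 12.46 in siNC, with siNC replicate 1 nearest to the siRPL13 libraries that were raised. HDAC9 rose by 0.23 ± 0.06 (adjusted p 0.0246), against 0.15 ± 0.09 with all 6. HDAC4 differed by 0.17 ± 0.06 (adjusted p 0.0582), HDAC5 by -0.05 ± 0.06 and HDAC7 by -0.03 ± 0.05. HDAC6, the class IIb tubulin deacetylase, measured 9.76, 9.93 and 10.08 in siRPL13 replicates 1 to 3 and 10.10, 10.07 and 10.00 in siNC. It fell by 0.21 ± 0.07 (adjusted p 0.0480), against -0.13 ± 0.09 with all 6, and its call was lost under 6 of 9 other settings. HDAC10 differed by -0.04 ± 0.06 and HDAC11, the class IV enzyme, by -0.24 ± 0.09 (adjusted p 0.104).

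Of 7 sirtuins 1 rose and 1 fell (14.3% each), against 8.42% and 10.7% of all genes tested. SIRT2 (chromosome 19, 38878555 to 38899862, minus strand), a mainly cytoplasmic deacetylase of tubulin and H4K16, measured 11.52, 11.45 and 11.16 in siRPL13 replicates 1 to 3 and 11.12, 11.20 and 11.20 in siNC. Only siRPL13 replicates 1 and 2 lay above the siNC range. SIRT2 had the highest fitted difference of the 64 and rose by 0.31 ± 0.05, to 124% of siNC (adjusted p 0.00349), against 0.20 ± 0.09 with all 6. SIRT5 (chromosome 6, 13574529 to 13615158, plus strand), the mitochondrial enzyme that removes succinyl and malonyl groups, measured 8.54, 8.61 and 8.60 in siRPL13 replicates 1 to 3 and 8.78, 8.96 and 8.84 in siNC. Every siRPL13 library lay below every siNC library, the library labelled siRPL13 replicate 3 included. SIRT5 fell by 0.29 ± 0.08 (adjusted p 0.0237), and with all 6 libraries the difference was -0.28 ± 0.07, with an unadjusted p of 0.00503 and an adjusted p of 0.589 (limma). Groups did not overlap over all 6 libraries for 2 of the 64 that were lower (SIRT5 and KDM1A) and 1 that was higher (KDM8), against 6.9% and 6.92% of all genes tested. The other 5 sirtuins ran from -0.04 ± 0.08 (SIRT3) to 0.12 ± 0.06 (SIRT4).

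**Figure D3:**
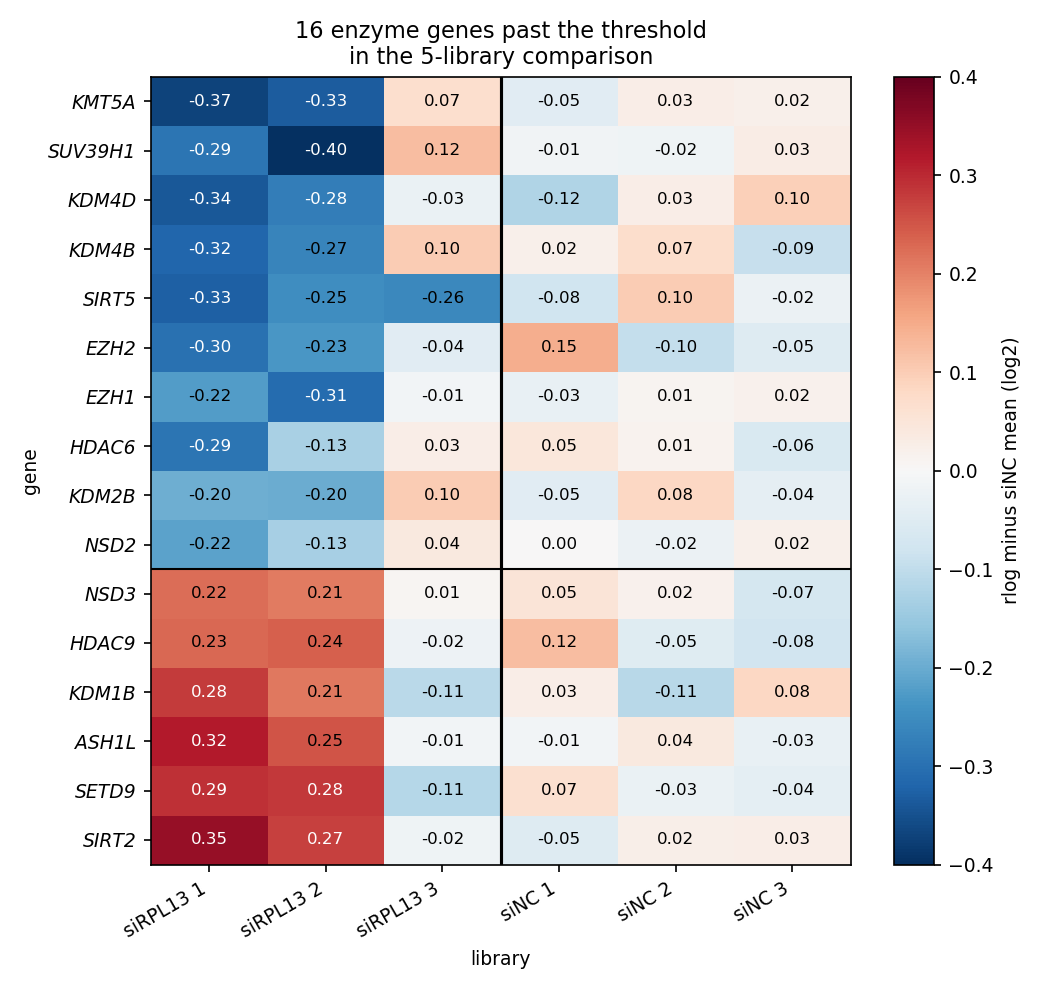
Rlog minus the siNC mean (log2, colour and printed value) of the 16 enzyme genes past the threshold in the 5-library comparison, 1 column per library with siRPL13 left of siNC, and a line between genes that fell and rose. In the library labelled siRPL13 replicate 3, SIRT5 is at -0.26 while KMT5A is at 0.07 and SUV39H1 at 0.12.

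For the 10 genes that fell, the library labelled siRPL13 replicate 3 lay above the siNC range for 5, within it for 4 and below it for 1. For the 6 that rose it lay within the range for 5 and below it for 1. Some paralogs moved apart within libraries, in pairs chosen after their values were seen and given without a test. The difference of NSD3 minus NSD2, set to 0 at its siNC mean, was 0.44, 0.34 and -0.03 in siRPL13 replicates 1 to 3 and 0.05, 0.04 and -0.09 in siNC. KMT5B minus KMT5A was 0.38, 0.44 and -0.14 in siRPL13 replicates 1 to 3 and 0.08, -0.08 and -0.00 in siNC. In both pairs siRPL13 replicates 1 and 2 lay above every siNC library. SUV39H2 minus SUV39H1 was 0.38, 0.56 and -0.10 in siRPL13 replicates 1 to 3 and 0.15, -0.04 and -0.10 in siNC. EZH1 minus EZH2 showed overlapping groups, at 0.07, -0.07 and 0.03 in siRPL13 replicates 1 to 3 and -0.18, 0.11 and 0.07 in siNC.

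Promoters are shown for 3 genes that fell (EZH2, EZH1 and KMT5A) and 2 that rose (SIRT2 and ASH1L), as the 250 bases before the RefSeq start (GRCh38.p14, 5′ to 3′ on the gene's strand). That start lay 13 and 10 bases from the GENCODE transcript start for EZH2 and EZH1, but 359, 205 and 271 for KMT5A, SIRT2 and ASH1L. The KMT5A window and most of the SIRT2 window thus lie inside the gene positions given above. They are shown for the CCAAT box, the site of the factor NF-Y and common in promoters of cell-cycle genes, and capitals mark CCAAT or, for the other strand, ATTGG.
EZH2 (chr7:148884292-148884541, minus strand): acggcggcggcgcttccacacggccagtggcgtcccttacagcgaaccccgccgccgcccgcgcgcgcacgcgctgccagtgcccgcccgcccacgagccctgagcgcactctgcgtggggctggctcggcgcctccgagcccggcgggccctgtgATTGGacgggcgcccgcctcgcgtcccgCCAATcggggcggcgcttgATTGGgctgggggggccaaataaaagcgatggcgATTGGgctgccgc
EZH1 (chr17:42745041-42745290, minus strand): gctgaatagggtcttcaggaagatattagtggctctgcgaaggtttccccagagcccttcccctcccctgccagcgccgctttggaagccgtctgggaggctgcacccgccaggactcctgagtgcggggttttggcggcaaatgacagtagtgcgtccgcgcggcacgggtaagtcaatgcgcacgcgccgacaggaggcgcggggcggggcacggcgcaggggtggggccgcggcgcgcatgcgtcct
KMT5A (chr12:123383882-123384131, plus strand): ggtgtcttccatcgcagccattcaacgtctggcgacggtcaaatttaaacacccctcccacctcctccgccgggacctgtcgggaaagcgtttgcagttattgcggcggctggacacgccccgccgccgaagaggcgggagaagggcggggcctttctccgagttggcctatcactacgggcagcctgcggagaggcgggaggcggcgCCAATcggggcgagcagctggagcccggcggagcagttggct
SIRT2 (chr19:38899619-38899868, minus strand): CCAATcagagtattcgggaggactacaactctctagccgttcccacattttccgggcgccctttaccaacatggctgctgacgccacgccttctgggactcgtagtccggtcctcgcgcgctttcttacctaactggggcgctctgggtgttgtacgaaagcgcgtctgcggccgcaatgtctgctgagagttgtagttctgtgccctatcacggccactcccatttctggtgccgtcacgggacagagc
ASH1L (chr1:155562804-155563053, minus strand): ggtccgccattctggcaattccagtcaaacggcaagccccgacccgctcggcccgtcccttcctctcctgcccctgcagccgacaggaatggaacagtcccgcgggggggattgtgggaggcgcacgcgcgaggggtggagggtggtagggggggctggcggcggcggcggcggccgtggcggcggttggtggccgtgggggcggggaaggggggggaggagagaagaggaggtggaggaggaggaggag

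EZH2 held 4 CCAAT boxes, KMT5A and SIRT2 held 1 each, and EZH1 and ASH1L held 0. RefSeq promoters were matched for 59 of the 64 genes and for 10774 of the genes tested, the unmatched being HDAC5, NSD3, DOT1L, SIRT7 and SETD1B. A CCAAT box was present for 8 of the 10 enzyme genes that fell, 1 of the 5 matched genes that rose and 14 of the 44 others, against 35.2% of all matched promoters. Over all genes tested the share was 42.6% for those that fell and 32.6% for those that rose. A GC box (GGGCGG, or CCGCCC for the other strand) was present for 9 of the 10, 2 of the 5 and 29 of the 44, against 68.8%. Over all genes tested it was present for 75.5% of those that fell and 64.4% of those that rose. The E2F sites TTTCCCGC and TTTGGCGC, searched on both strands as were all motifs, were present for 4 and 0 of the 59 (2.24% and 0.826% of all matched promoters). The E box CACGTG was present for 8 (8.76%) and the cAMP response element TGACGTCA for 1 (2.98%). Motifs were allowed to overlap, and the counts describe letters in this window.

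GC content of the transcript moved with the values in single libraries. The 10 genes that fell had a median GC content of 51.7% (44.8% to 61.4%) and the 6 that rose 47.1% (42.0% to 59.0%), with overlapping ranges. Across the 64 genes, which share their libraries and are not replicates, Spearman's rho between GC content and the 5-library difference was -0.35, against -0.20 over 14933 genes tested with a known transcript. Within libraries, rho with the deviation from the siNC mean was -0.33, -0.36 and 0.59 in siRPL13 replicates 1 to 3 and -0.43, 0.38 and 0.14 in siNC. Over the 14933 genes it was -0.16, -0.23 and 0.38 in siRPL13 replicates 1 to 3 and -0.31, 0.36 and -0.04 in siNC. The trends were thus not particular to the enzyme genes. The siNC libraries make up the siNC mean, so their deviations cancel within each gene. Mixed signs among the siNC libraries are therefore built into the measure, but their size is not. Among the 64, rho in siNC replicates 1 and 2 (-0.43 and 0.38) was as large in size as in siRPL13 replicates 1 and 2 (-0.33 and -0.36). With each library's trend on GC content removed, a setting added after the data were seen, 14 of the 16 were called again, HDAC6 and KDM2B were not, and HDAC4 was added. This made 7 of the 64 higher and 8 lower, against 1525 and 1757 of the 15327 genes tested. Both counts were then near the background, that of falls included. With all 6 libraries the same removal left 0 called, both among the 64 and among all genes tested.

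**Figure D4:**
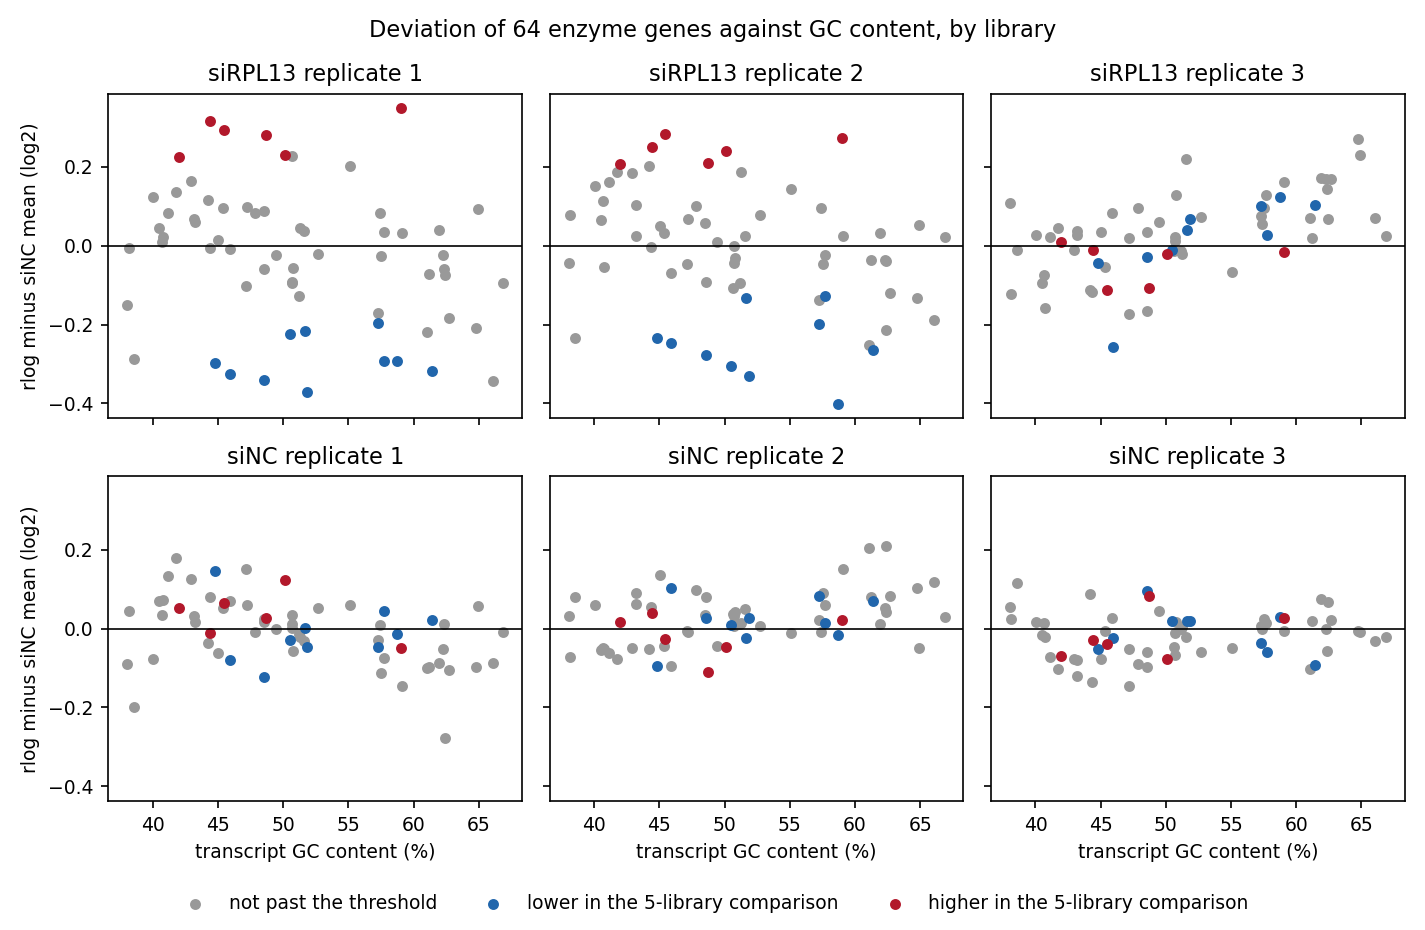
Rlog minus the siNC mean (vertical axes, log2) against transcript GC content (horizontal axes, %) of the 64 enzyme genes, 1 panel per library, siRPL13 above siNC, with genes that fell in blue, rose in red and others in grey. Points slope upward in the library labelled siRPL13 replicate 3 (rho 0.59) and downward in siNC replicate 1 (rho -0.43).

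Proliferation genes were lower in the same siRPL13 libraries as EZH2 and KMT5A. Of 12, a list added after the data were seen, 8 fell (66.7%) and 0 rose, against 10.7% and 8.42% of all genes tested, with a median difference of -0.29. Relative to the siNC mean, the list's median was -0.33, -0.25 and 0.06 in siRPL13 replicates 1 to 3 and 0.03, -0.03 and 0.03 in siNC. MKI67, a marker of cycling cells, measured 13.18, 13.31 and 13.67 in siRPL13 replicates 1 to 3 and 13.64, 13.55 and 13.53 in siNC. The part of proliferation in the results for the enzyme genes was not tested, and in bulk RNA fewer cells of a kind and less RNA per cell cannot be told apart.

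Partner subunits were counted from lists of the complexes. Of 13 partners of the KMT2 and SETD1 methyltransferases 4 fell and 0 rose, with a median of -0.10. The core subunit ASH2L fell by 0.25 ± 0.05, MEN1 fell by 0.23 ± 0.06, the chromatin reader PSIP1 fell by 0.20 ± 0.06 and the core subunit WDR5 fell by 0.18 ± 0.05. Of 9 further genes of PRC2, listed as accessory subunits, 2 fell and 0 rose, with a median of -0.08. These were the histone chaperone RBBP7, which fell by 0.25 ± 0.06, and PHF19, which fell by 0.23 ± 0.07. In these lists 30.8% and 22.2% were lower, against the 10.7% of all genes tested, on 13 and 9 genes.

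Of 39 scaffolds of HDAC complexes 5 fell (12.8%) and 2 rose (5.13%), with a median of -0.03. The 17.9% called in either direction was near the 19.1% of all genes tested. CHD4, the remodeller of the NuRD complex, fell by 0.24 ± 0.05, and SAP30 of the SIN3 complex fell by 0.24 ± 0.05. HMG20B and ZMYM3, found with KDM1A in corepressor complexes, differed by -0.25 ± 0.05 and -0.22 ± 0.05, and TBL1X of the NCOR complex by -0.29 ± 0.08. NCOR1 itself rose by 0.19 ± 0.05 and its partner GPS2 rose by 0.32 ± 0.08.

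Histone acetyltransferases, which oppose the HDACs, held 3 rises (23.1%) and 0 falls among 13, against 8.42% and 10.7% of all genes tested, with a median of 0.07. KAT6B measured 10.10, 9.99 and 9.58 in siRPL13 replicates 1 to 3 and 9.65, 9.69 and 9.65 in siNC, and rose by 0.39 ± 0.06 (adjusted p 0.00240). Its paralog KAT6A rose by 0.30 ± 0.06 and the coactivator CREBBP rose by 0.21 ± 0.05. Of 15 other lysine and arginine methyltransferases SMYD3 rose by 0.36 ± 0.06 and PRMT7 fell by 0.28 ± 0.06, or 6.67% in each direction, below the same background, and of 11 other Jumonji proteins 0 passed. With all 6 libraries 0 genes of these lists passed, as for all genes tested.

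**Figure D5:**
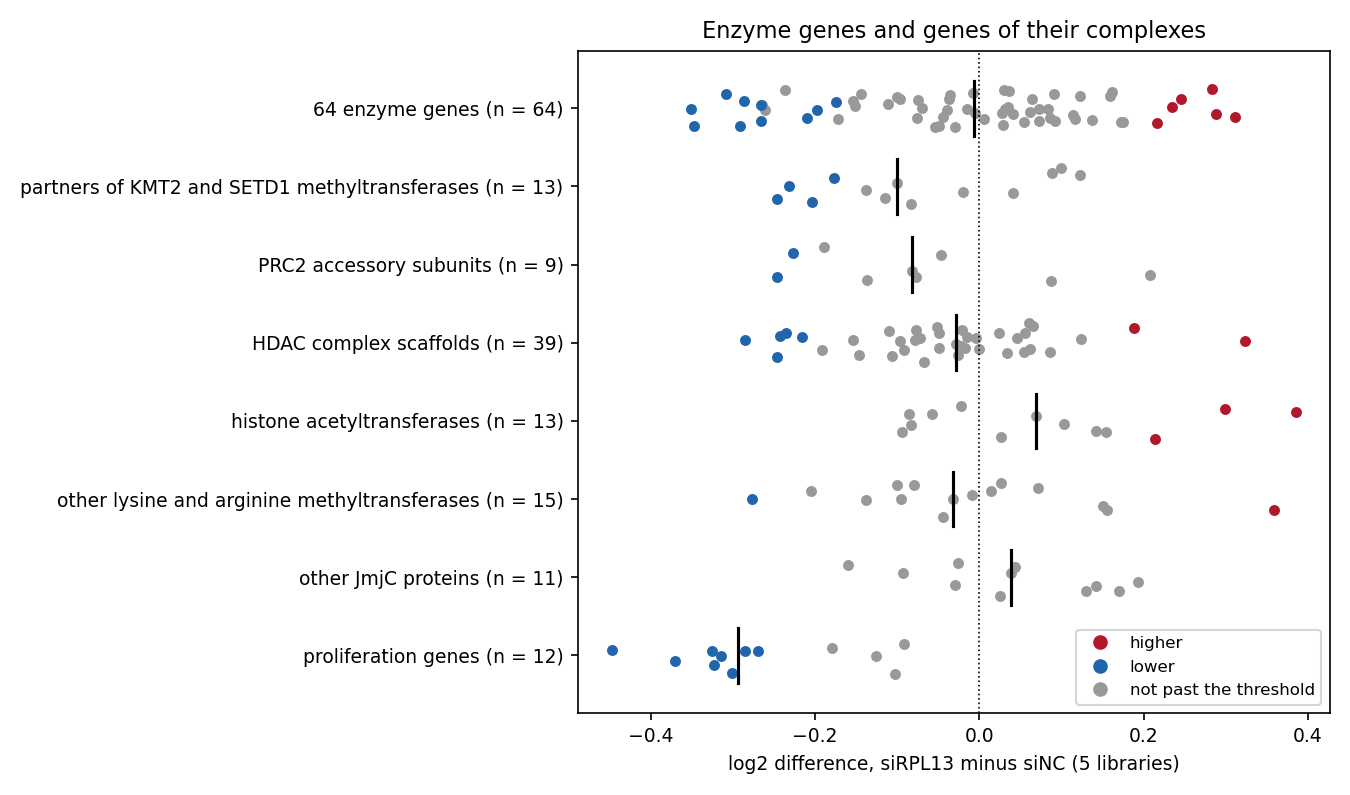
Log2 difference (horizontal axis, siRPL13 minus siNC, 5 libraries) of the 64 enzyme genes and of genes in related lists, 1 point per gene, red higher, blue lower and grey not past the threshold, with a black bar at each median. Medians run from -0.29 for proliferation genes to 0.07 for histone acetyltransferases.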

How the data were processed

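RNA of 6 cultures was sequenced, 3 siRPL13 and 3 siNC, grouped and numbered as in the sample titles. The deposited values are rlog values on the log2 scale, made by the authors. Per the submitters' processing notes the tools were Trimmomatic 0.33, TopHat, HTSeq 0.6.1p1 and DESeq2 with build GRCh38.p7; no roles are given. Use of strand in counting was not given, so reads of antisense partners cannot be told apart. Rlog values are not counts and show no depth, so no count model was used.

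The 15327 genes with mean rlog of 3 or more were tested, all 64 enzyme genes among them. Differences came from limma 3.58.1 in R 4.3.3 (eBayes with trend, two-sided, Benjamini-Hochberg over all genes tested, threshold 0.05), tested on simulated data; every adjusted p is limma's. Symbols came from a table of current names (20499 identifiers matched). GENCODE 29 (20608 matched) gave biotype, position, and length and GC content of 1 transcript per gene. Of 74 genes matched by letters, 8 were not protein-coding, NSDHL was left out and 1 is not reported here; KMT2B and EHMT2 were not analysed here. GC trends were removed per library by lowess (span 0.3). The members and lists were chosen with earlier results of these data known. Values per library are given for every member past the threshold and, in role groups with none, for the member with the highest mean rlog. Marker genes, KDM1A, KMT5AP2, MKI67, KAT6B and the paralog pairs were named after their values were seen. The motifs and the promoters shown were not fixed in advance. Between any 2 libraries 0 values were identical. Alternatives are in the closing section.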

Additional observations from a re-analysis of the deposited data

How the results depend on the processing

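Alternatives were another expression filter (none, or a mean of 5), other scalings (quantile, median), other variance models (no trend, robust trend), library weights, a block on replicate number, each library left out, NSDHL counted and, added after the data were seen, removal of GC or GC and length trends. Over all 6 libraries, 0 enzyme genes higher and 0 lower became 13 and 15 with library weights (2601 and 2708 of all genes). Those weights rested mostly on siRPL13 replicate 2 among the siRPL13 libraries. Leaving out a library from the 6 gave 0 to 6 higher and 0 to 10 lower (0 to 1291 and 0 to 1642 of all genes), above 0 only without siRPL13 replicate 3. In the 5-library comparison, leaving out a further library gave 0 to 9 higher and 0 to 15 lower (102 to 1734 and 141 to 2014 of all genes), and library weights gave 2007 genes higher. The counts of enzyme genes under the other settings stayed within 1.5 times of 6 and 10, NSDHL included (11 lower). No enzyme gene that was called changed sign; 56 values of single genes in that comparison lost the call. The replicate block over all 6 libraries gave 0 enzyme genes higher and 0 lower (smallest adjusted p 0.723). Deviations of same-numbered libraries from their group means correlated at 0.08, -0.43 and -0.33. Such deviations cancel within each group, so these values cannot show whether same-numbered cultures were handled together. The cause of these values was not tested. Read depth is unknown, so no limit of detection is given.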

Other observations

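Pseudogenes and noncoding genes that carry the names of these enzymes were read separately, as 8 genes that are not protein-coding. HDAC1P2, a pseudogene of HDAC1, measured 5.60, 5.59 and 5.36 in siRPL13 replicates 1 to 3 and 5.23, 5.27 and 5.39 in siNC and rose by 0.30 ± 0.07 (log2 ± SE, 5 libraries, adjusted p 0.0135, limma), while HDAC1 differed by -0.01 ± 0.05. KMT5AP2 measured 5.27, 5.20 and 5.37 in siRPL13 replicates 1 to 3 and 5.50, 5.54 and 5.51 in siNC. All siRPL13 libraries lay below every siNC library for KMT5AP2, the library labelled siRPL13 replicate 3 included, where KMT5A itself was above siNC. Over all 6 libraries KMT5AP2 differed by -0.24 ± 0.06 (unadjusted p 0.00457, adjusted p 0.589, limma). The antisense and divergent transcripts HDAC4-AS1, KDM4A-AS1, KDM7A-DT and KMT2E-AS1 did not pass the test, with differences from -0.07 ± 0.06 (KDM4A-AS1) to 0.17 ± 0.07 (KDM7A-DT). KDM7A itself differed by -0.26 ± 0.10, also not past the threshold.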
